A study of Mus musculus with 11 samples.

Results

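The antioxidant and iron storage genes followed here are *Fth1*, *Ftl1*, *Hmox1*, *Nqo1*, *Gclc*, *Gclm*, *Txnrd1*, *Gpx4*, *Prdx1* and *Slc7a11*, which were taken by their symbols as 10 of the 35814 gene symbols of the count table. Their transcripts were counted in libraries labelled as sorted CD4+ T cells of the kidney, taken on day 2 of ischemia reperfusion injury (IRI) and sequenced in bulk, with 1 library for each of 11 C57BL/6 mice. All mice expressed Cre recombinase under the CD4 promoter: 3 libraries were labelled CD4creControl (CD4cre below, with no floxed target gene), 5 were labelled CD4IKK1 (floxed *Chuk*, the gene of the kinase IKK1) and 3 were labelled CD4NIK (floxed *Map3k14*, the gene of the kinase NIK). All groups were adult male mice, all underwent IRI, and no library came from a sham-operated mouse. This promoter is active from an early stage of T cell development, so that the deletion is not limited to CD4+ T cells. IKK1 and NIK are consecutive kinases of the non-canonical NFκB pathway.

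Ferritin, built from the heavy chain FTH1 and the light chain FTL1, stores iron in a form that cannot react with peroxide, and heme oxygenase 1 (HMOX1) frees iron from heme. Glutathione, made from cystine that enters through SLC7A11 and joined by the ligase of GCLC and GCLM, serves GPX4 in the removal of lipid peroxides, while thioredoxin reductase 1 (TXNRD1) and peroxiredoxin 1 (PRDX1) form a parallel peroxide-removing system. Many of these genes are targets of the transcription factor NRF2, and reperfusion is known for a burst of reactive oxygen species in the kidney.

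The ferritin mRNAs are also controlled at translation, through a hairpin in the 5′ UTR to which iron regulatory proteins bind when iron is scarce. The sites are shown because both ferritin chains carry them and because count data do not report this step. They are given 5′ to 3′ from the GENCODE transcripts of GRCm39, with the CAGTGN loop in capitals. In both, the 5 bases on either side of the loop can pair. In the transcript Fth1-201 the site covers positions 87 to 114, and in Ftl1-201 positions 78 to 105.
Fth1: ttcctgcttcaaCAGTGCttgaacggaa
Ftl1: gtcttgcttcaaCAGTGTttgaacggaa

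At the DNA, NRF2 binds the antioxidant response element, searched here as TGACNNNGC on both strands between 250 bases before and 50 bases after the transcription starts of RefSeq (GRCm38.p6). Of the 10 genes, 8 had a window in the list of starts used here, which held none for *Hmox1* and *Gclc*. The motif was found in 3 of the 14 windows of these genes, against 12.4% of all 32851 windows. These windows are printed because they hold the match, 5′ to 3′ on the plus strand and with the match in capitals. All matches are on the minus strand, so that the capitals show the reverse complement of the motif. A match is a description of the letters and shows no binding. The window of *Gclm* is chr3:122245307-122245606, with the match 134 bases before the start. That of *Txnrd1* is chr10:82858956-82859255, 1 of its 3 windows, with the match 92 bases before the start. That of *Prdx1* is chr4:116685349-116685648, with the match 133 bases before the start.
Gclm: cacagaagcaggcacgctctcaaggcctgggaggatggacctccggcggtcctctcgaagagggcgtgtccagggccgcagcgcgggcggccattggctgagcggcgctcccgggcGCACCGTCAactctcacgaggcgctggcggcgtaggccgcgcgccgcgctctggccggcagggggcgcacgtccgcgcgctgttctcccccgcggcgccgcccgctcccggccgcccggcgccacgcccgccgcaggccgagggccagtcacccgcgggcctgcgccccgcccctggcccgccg
Txnrd1: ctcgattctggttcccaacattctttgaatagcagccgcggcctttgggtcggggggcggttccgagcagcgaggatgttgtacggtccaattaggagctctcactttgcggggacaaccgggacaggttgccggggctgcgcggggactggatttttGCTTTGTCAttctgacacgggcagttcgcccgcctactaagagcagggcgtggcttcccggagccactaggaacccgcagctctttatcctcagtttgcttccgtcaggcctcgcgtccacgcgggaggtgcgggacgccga
Prdx1: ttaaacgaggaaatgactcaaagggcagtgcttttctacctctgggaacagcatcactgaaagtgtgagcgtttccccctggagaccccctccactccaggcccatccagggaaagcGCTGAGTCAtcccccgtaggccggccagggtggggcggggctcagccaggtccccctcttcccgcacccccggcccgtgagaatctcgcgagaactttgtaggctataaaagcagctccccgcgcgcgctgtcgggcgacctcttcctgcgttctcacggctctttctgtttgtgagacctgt

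The libraries held between 15751632 and 25737046 estimated counts, so that 3 counts were worth 0.115 to 0.211 CPM, the unit of all levels given (estimated counts per fixed library size, with edgeR's TMM factors). Such floors cover counting error only. *Chuk* (20.4 ± 4.55 CPM (SD, n = 5) in libraries labelled CD4IKK1 and 22.0 ± 9.67 CPM (SD, n = 3) in CD4cre) and *Map3k14* (22.5 ± 8.98 CPM (SD, n = 3) in libraries labelled CD4NIK and 17.9 ± 2.78 CPM (SD, n = 3) in CD4cre) overlapped with CD4cre in the libraries labelled as their knockouts, with log2 fold changes of −0.11 (SE 0.31, FDR 0.921) and 0.30 (SE 0.36, FDR 0.575) in edgeR's quasi-likelihood test. The counts sum all transcripts of a gene, and the floxed exons cannot be seen in them, so that they do not check the labels. All 15 T cell markers were detected in the 3 libraries labelled CD4NIK, with a summed level between 8495 and 12555 CPM, and in CD4cre, with 1596 to 3073 CPM. In the libraries labelled CD4IKK1 the sum ran from 12.4 to 1373 CPM. Replicates 1 and 2 of this group stood apart, with 193 and 2811 counts over all 15 markers, and *Trac* had 1 count in replicate 1. In replicate 1 these values go against the label of a T cell population. Transcripts of other cell types were present. The 10 neuron and glia markers summed to between 1541 and 1897 CPM in CD4cre, between 1985 and 2245 CPM in CD4IKK1 and between 474 and 1148 CPM in CD4NIK. In every CD4IKK1 library this sum exceeded that of the T cell markers, as it did in CD4cre replicate 3 (1897 against 1596 CPM). The 14 macrophage and monocyte markers summed to between 482 and 1954 CPM, between 109 and 276 CPM and between 793 and 1172 CPM in the same order. In this list *Adgre1* and *Itgam* were each at 0 in 7 of 11 libraries. The 7 erythroid markers, almost entirely globins, summed to between 2084 and 2678 CPM in CD4cre. Their sum was 534 to 1610 CPM in CD4IKK1 and 1190 to 8175 CPM in CD4NIK, with *Slc4a1* at 0 in all 11 libraries. Kidney tubule markers reached at most 112 CPM, endothelial markers 52.1 CPM, B cell markers 24.4 CPM and neutrophil markers 5.91 CPM.

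All 10 genes passed the filter on low counts in each of the 3 comparisons. In the comparison of libraries labelled CD4IKK1 with CD4cre, no member reached the threshold (FDR under 0.05 by the quasi-likelihood test of edgeR), and 0% of the 15653 genes tested were called. At an unadjusted p under 0.05 there were 3 members, against 16.6% of all genes: *Ftl1* and *Hmox1* had negative and *Gpx4* a positive fold change. DESeq2 called 2 members, *Ftl1* and *Hmox1*, against 8.75% of all genes. In the comparison of libraries labelled CD4NIK with CD4cre, 2 members passed (*Prdx1* rose and *Gpx4* fell), against a background of 21.1% of genes called, 12.1% higher and 8.97% lower. DESeq2 called 5 members there, against 30.4% of genes. Between CD4IKK1 and CD4NIK, 6 members passed, against 42.2% of genes (20.2% higher and 22.0% lower in CD4IKK1), and DESeq2 called 7, against 44.3%. *Fth1* and *Gpx4* were higher and *Ftl1*, *Hmox1*, *Txnrd1* and *Prdx1* lower in CD4IKK1. The first 2 comparisons share the CD4cre libraries, and in bulk samples fewer cells of a type cannot be told apart from less RNA per cell.

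The libraries of the groups did not overlap for 2 of 10 members between CD4IKK1 and CD4cre (14.4% of all genes tested), for 6 of 10 between CD4NIK and CD4cre (45.1%) and for 7 of 10 between CD4IKK1 and CD4NIK (45.1%). The median log2 fold change of the 10 members was 0.07, 0.68 and −0.61 in these comparisons, beside 0.02, −0.02 and 0.06 over all genes tested. The levels by library and the fitted differences are plotted for each gene.

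**Figure D1:**
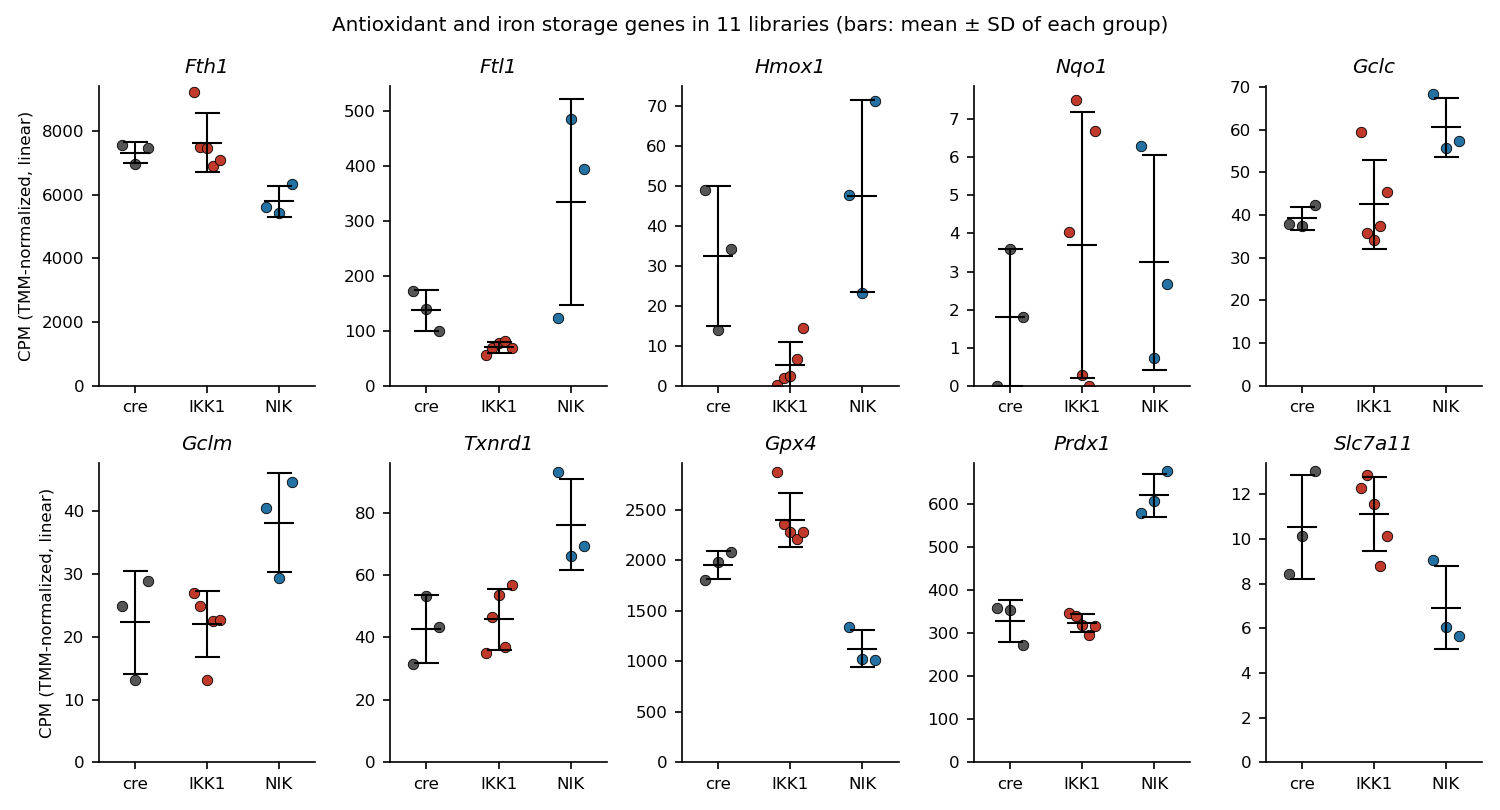
Level of each of the 10 genes in every library, in CPM on a linear axis from 0, by group (3 CD4cre, 5 CD4IKK1 and 3 CD4NIK libraries). Points are libraries and bars the mean ± SD. The 3 CD4NIK libraries lie above all others for *Prdx1*, *Txnrd1* and *Gclm* and below all others for *Gpx4* and *Fth1*, while the 5 CD4IKK1 libraries lie below the others for *Ftl1*.

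**Figure D2:**
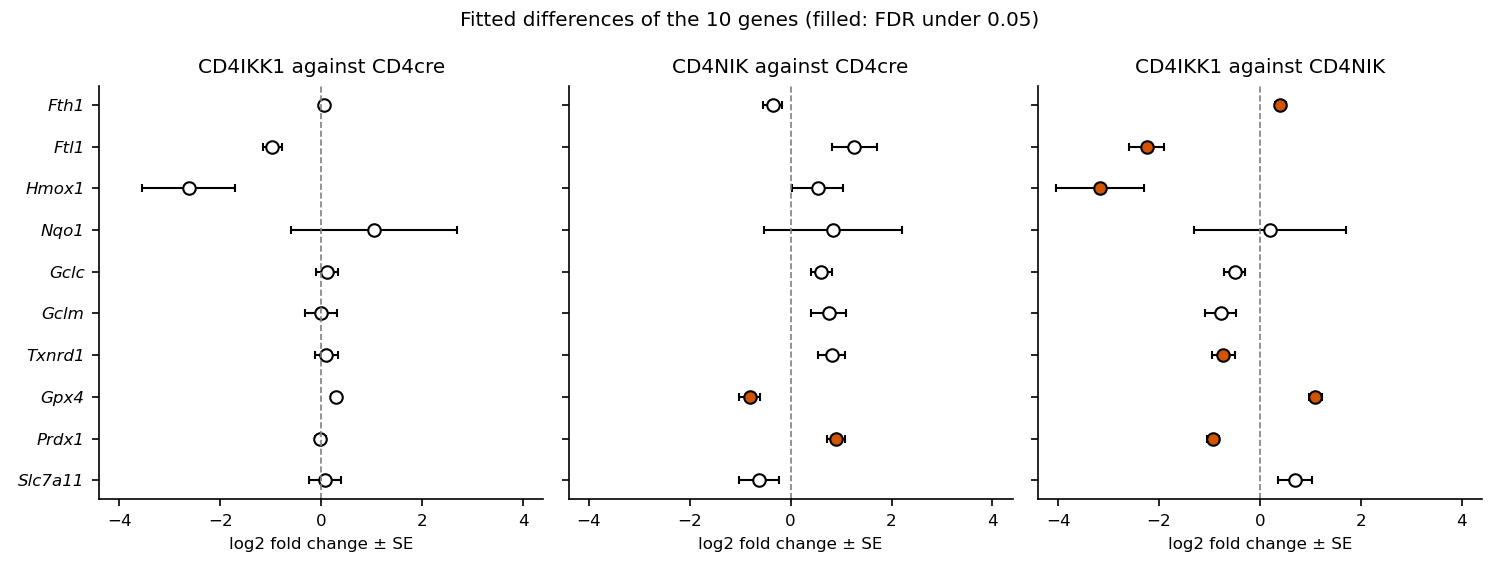
Log2 fold change of each gene ± SE in the 3 comparisons, from edgeR's quasi-likelihood fit. Filled points passed an FDR under 0.05, which holds for 0, 2 and 6 of the 10 genes from left to right.

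Of the iron storage genes, *Fth1* (chr19:9957911-9962462, plus strand, GRCm39), the ferritin chain with the ferroxidase activity, varied little. It had 196071, 143135 and 149255 counts in CD4cre, 143998, 143345, 131389, 138902 and 157955 in CD4IKK1 and 100440, 110731 and 90037 in CD4NIK, in the order of replicates. This gave 7325 ± 321 CPM (SD, n = 3), 7636 ± 921 CPM (SD, n = 5) and 5797 ± 483 CPM (SD, n = 3). All CD4NIK libraries lay below all others. CD4IKK1 and CD4cre overlapped, with a log2 fold change of 0.06 (SE 0.09, FDR 0.823 in edgeR's quasi-likelihood test). *Fth1* was higher in CD4IKK1 than in CD4NIK by 0.40 on the log2 scale (SE 0.11, FDR 0.0131 in edgeR's quasi-likelihood test), a 1.32-fold difference. This call was lost without CD4IKK1 replicates 1 and 2 together (log2 fold change 0.31, FDR 0.0777), without CD4NIK replicate 2 (FDR 0.0644) and in DESeq2 (adjusted p 0.0758). It was also lost with the T cell (0.10, FDR 0.801) or the macrophage and monocyte (0.17, FDR 0.749) marker level as a covariate, within an FDR range of 0.00143 to 0.801 over 18 alternatives. These covariate fits called 4.59% and 0.0907% of all genes, beside 42.2% without a covariate. Against CD4cre, the CD4NIK difference was −0.36 (SE 0.19, FDR 0.213 in edgeR's quasi-likelihood test).

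*Ftl1* (chr7:45107367-45109308, minus strand, GRCm39), the light chain that promotes iron core formation, had 4498, 2880 and 1986 counts in CD4cre, 878, 1310, 1365, 1636 and 1527 in CD4IKK1 and 2228, 9871 and 5604 in CD4NIK. The mean level was 137.5 ± 36.9 CPM (SD, n = 3) in CD4cre, 70.4 ± 9.66 CPM (SD, n = 5) in CD4IKK1 and 335 ± 188 CPM (SD, n = 3) in CD4NIK. Every CD4IKK1 library lay below every other library, whereas CD4NIK replicate 1 lay within the range of CD4cre. *Ftl1* was lower in CD4IKK1 than in CD4NIK by 4.74-fold (log2 fold change −2.25, SE 0.34, FDR 0.000384 in edgeR's quasi-likelihood test), and the call held without each library in turn. It was lost with the T cell or the macrophage and monocyte marker level as a covariate, at log2 fold changes of −1.67 (FDR 0.117) and −2.36 (FDR 0.0988), as were most calls of all genes in these fits, and the FDR ran from 2.75e-08 to 0.117 over 18 alternatives. Against CD4cre the log2 fold change of CD4IKK1 was −0.97 (SE 0.18) and missed the threshold, with an FDR of 0.0759 in edgeR's quasi-likelihood test and an adjusted p of 0.000268 in DESeq2. Its FDR in edgeR without the filter on low counts was 0.0315, and its FDR ran from 0.000268 to 1.00 over 18 alternatives. CD4NIK against CD4cre gave 1.26 (SE 0.44, FDR 0.0741 in edgeR's quasi-likelihood test, adjusted p 0.0173 in DESeq2). Without CD4NIK replicate 1 this became 1.68 with an FDR of 0.00382, against a range of 0.00382 to 0.931 over 15 alternatives.

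The 18 symbols of ferritin, *Gpx4* and *Prdx1* copies and pseudogenes in the table, to which kallisto can assign reads of their parent gene, had few counts. *Ftl1-ps1* had between 36 and 111 counts in a library, *Gpx4-ps2* between 11 and 129, and *Ftl2-ps* at most 22. Adding the copies to their parent gene left the number of members called in each comparison as it was.

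The ratio of *Fth1* to *Ftl1* counts within a library does not depend on the library's scaling. On the log2 scale it was 5.45, 5.63 and 6.23 in CD4cre, 7.36, 6.77, 6.59, 6.41 and 6.69 in CD4IKK1 and 5.49, 3.49 and 4.01 in CD4NIK. All CD4IKK1 libraries lay above all others. The difference was 0.99 against CD4cre and 2.43 against CD4NIK, each with p = 0.0179 (two-sided exact permutation test, the smallest p that 5 against 3 libraries allow) and an adjusted p of 0.0714 over the 12 ratio tests run.

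*Hmox1* (chr8:75820241-75827217, plus strand, GRCm39), whose product opens the heme ring and which is induced by heme and oxidants, had the widest differences of the 10 genes between CD4IKK1 and the other groups. Its counts were 1272, 290 and 686 in CD4cre, 5, 40, 43, 136 and 323 in CD4IKK1 and 855, 474 and 1012 in CD4NIK. The mean level was 32.5 ± 17.5 CPM (SD, n = 3), 5.23 ± 5.71 CPM (SD, n = 5) and 47.4 ± 24.0 CPM (SD, n = 3). CD4IKK1 replicate 5, at 14.5 CPM, lay just above CD4cre replicate 2, at 14.1 CPM, and the other 4 CD4IKK1 libraries lay below all CD4cre and CD4NIK libraries.

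Between CD4IKK1 and CD4NIK *Hmox1* was 8.97-fold lower (log2 fold change −3.17, SE 0.88, FDR 0.0142 in edgeR's quasi-likelihood test). Without CD4NIK replicate 3 the FDR was 0.0589 (log2 fold change −2.75), and without CD4IKK1 replicate 5 the log2 fold change was −4.02 (FDR 0.00302). With the T cell marker level as a covariate the sign changed (0.25, FDR 0.925), in a fit that called 4.59% of all genes. Against CD4cre the difference was −2.63 (SE 0.92), with an FDR of 0.213 in edgeR's quasi-likelihood test and an adjusted p of 0.0223 in DESeq2, within a range of 0.0223 to 1.00 over 18 alternatives. Without 1 library it ran from −3.47 to −2.20, with an FDR of 0.118 to 0.554 in edgeR's test. CD4NIK and CD4cre differed by 0.53 (SE 0.51, FDR 0.481 in edgeR's quasi-likelihood test), and their libraries overlapped. *Hmox2*, the constitutive enzyme, had 175.5 ± 21.2 CPM (SD, n = 3), 211 ± 21.8 CPM (SD, n = 5) and 151 ± 27.8 CPM (SD, n = 3), in the order CD4cre, CD4IKK1, CD4NIK. Relative to it, the log2 ratio of *Hmox1* to *Hmox2* was −1.69, −3.59 and −2.53 in CD4cre, −9.42, −6.63, −6.19, −4.99 and −3.85 in CD4IKK1 and −1.94, −2.57 and −0.89 in CD4NIK. The difference of CD4IKK1 was −3.61 against CD4cre and −4.42 against CD4NIK, each with p = 0.0357 (two-sided exact permutation test, adjusted p 0.0857). Without 1 library it ran from −4.21 to −2.81 against CD4cre (p 0.0571 to 0.143 in this permutation test). Against CD4NIK it ran from −5.01 to −3.61 (p 0.0286 to 0.0952 in the same test). All CD4IKK1 ratios lay below all others.

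Macrophage and monocyte markers also differed where *Hmox1* was lower. Of 12 such markers tested between CD4IKK1 and CD4NIK, 7 were called lower in CD4IKK1 and 0 higher by edgeR, against 22.0% and 20.2% of all genes. Of 11 tested against CD4cre none was called by edgeR (0% of all genes) and 6 by DESeq2 (8.75% of all genes), all lower. DESeq2 called *Cd68* and *Mertk* of this list higher in CD4IKK1 than in CD4NIK (adjusted p 0.0370 and 0.0186). With the mean log2 level of the macrophage and monocyte markers as a covariate, the *Hmox1* difference of CD4IKK1 was 1.09 (FDR 1.00 in edgeR's quasi-likelihood test) against CD4cre and 0.36 (FDR 0.911) against CD4NIK. These fits called 0% and 0.0907% of all genes. The marker level of CD4IKK1 did not overlap with that of the other groups, so that the fits cannot separate it from the genotype. T cell markers also moved, with 14 of 15 called lower in CD4IKK1 than in CD4NIK (22.0% of all genes). None was called against CD4cre, where all 15 had negative fold changes. Of 6 erythroid markers tested, edgeR called 4 lower in CD4IKK1 than in CD4NIK (22.0% of all genes). Against CD4cre edgeR called none of them, DESeq2 called 4 lower (8.75% of all genes called), and 1 had a positive fold change. Of 9 kidney tubule markers, edgeR called 3 lower than in CD4NIK. None was called against CD4cre, where all 8 tested had negative fold changes. The part of these cell types in the *Hmox1* difference was not tested.

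**Figure D3:**
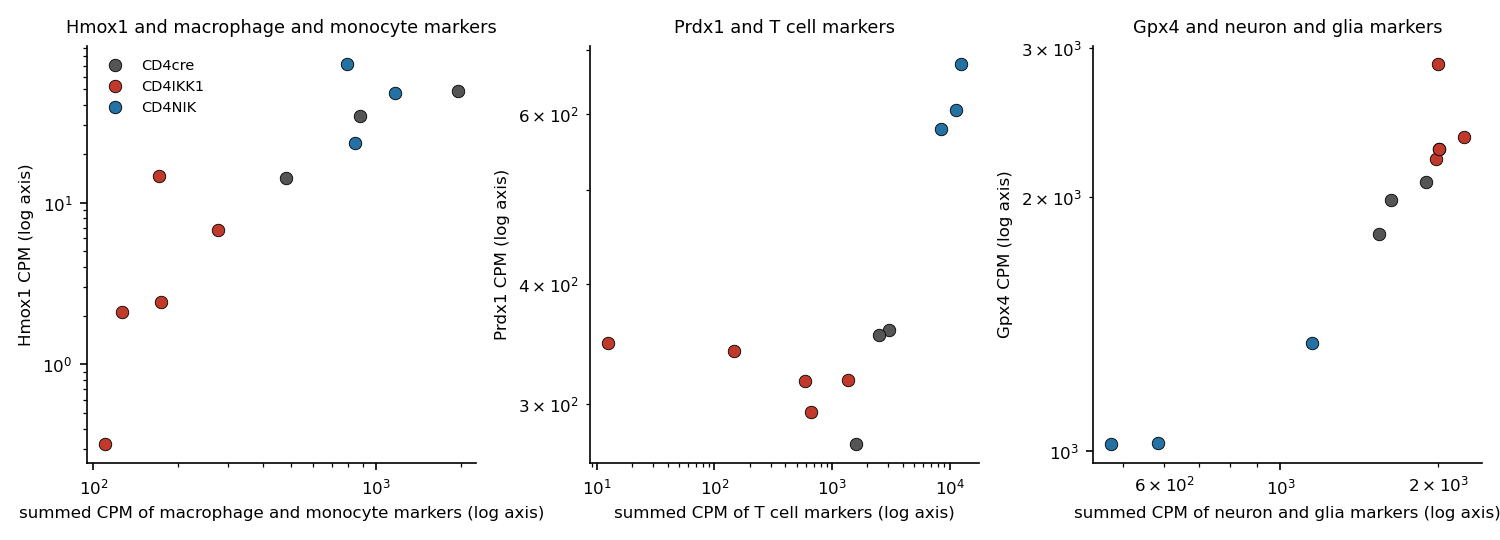
Level of *Hmox1*, *Prdx1* and *Gpx4* (CPM, log axis) against the summed CPM of the macrophage and monocyte, T cell, and neuron and glia markers (log axis), with 1 point for each of the 11 libraries. The CD4IKK1 libraries have the lowest macrophage sums (109 to 276 CPM) and CD4NIK the highest T cell sums (8495 to 12555 CPM) and the lowest neuron and glia sums (474 to 1148 CPM).

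Of the glutathione genes, *Gpx4* (chr10:79883000-79892273, plus strand, GRCm39), the peroxidase that reduces lipid peroxides within membranes, differed most clearly. It had 46915, 40739 and 41566 counts in CD4cre, 44827, 44950, 40172, 44616 and 50622 in CD4IKK1 and 24055, 20759 and 14433 in CD4NIK. These correspond to 1956 ± 139 CPM (SD, n = 3), 2399 ± 268 CPM (SD, n = 5) and 1127 ± 187 CPM (SD, n = 3), and no 2 of the groups overlapped.

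*Gpx4* fell by 0.81 on the log2 scale in CD4NIK against CD4cre (SE 0.20, FDR 0.0270 in edgeR's quasi-likelihood test), and it was 2.14-fold higher in CD4IKK1 than in CD4NIK (log2 fold change 1.10, SE 0.13, FDR 0.000122). The latter call held without each library in turn, and was lost with the T cell (0.74, FDR 0.0510) or the macrophage and monocyte (0.93, FDR 0.0928) marker level as a covariate, within a range of 1.98e-09 to 0.0928 over 18 alternatives. Those covariate fits called only 4.59% and 0.0907% of all genes. The fall in CD4NIK against CD4cre had an FDR of 0.0886 without CD4cre replicate 2, 0.0926 without CD4cre replicate 3, 0.0961 without CD4NIK replicate 2 and 0.0796 without CD4NIK replicate 3. With the T cell marker level as a covariate it changed sign (0.15, FDR 0.983), and its FDR range was 0.00129 to 0.983 over 15 alternatives. That covariate fit called 0 of the 15209 genes tested. T cell marker levels did not overlap between these groups, so that the fit cannot separate them from the genotype. Of the 15 T cell markers 14 were called higher in this comparison, against 12.1% of all genes. CD4IKK1 against CD4cre gave 0.30 (SE 0.10, FDR 0.174 in edgeR's quasi-likelihood test). The neuron and glia markers followed the same order. Of 9 tested, 6 were called lower in CD4NIK than in CD4cre (8.97% of all genes), and 9 of 10 higher in CD4IKK1 than in CD4NIK (20.2%). Their part in the *Gpx4* and *Fth1* values was not tested.

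*Gclc* (chr9:77661797-77701770, plus strand, GRCm39) encodes the catalytic subunit of glutamate cysteine ligase. Its counts were 983, 772 and 846 in CD4cre, 930, 684, 604, 756 and 1008 in CD4IKK1 and 1226, 1135 and 814 in CD4NIK. The level of 60.5 ± 6.87 CPM (SD, n = 3) in CD4NIK lay above 39.2 ± 2.70 CPM (SD, n = 3) in CD4cre with no overlap, but CD4IKK1 replicate 1, at 59.5 CPM, reached into the range of CD4NIK. The log2 fold change of CD4NIK was 0.61 against CD4cre (SE 0.21, FDR 0.0687 in edgeR's quasi-likelihood test, adjusted p 0.0241 in DESeq2). CD4IKK1 differed from CD4NIK by −0.50 (FDR 0.0634 in edgeR, adjusted p 0.0199 in DESeq2) and, without its replicate 1, by −0.66 (FDR 0.00987), against a range of 0.00987 to 0.393 over 18 alternatives.

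*Gclm* (chr3:122039126-122065061, plus strand, GRCm39), the modifier subunit, had 648, 270 and 577 counts in CD4cre, 422, 477, 233, 454 and 506 in CD4IKK1 and 726, 598 and 635 in CD4NIK. All CD4NIK libraries were above all others, at 38.2 ± 7.94 CPM (SD, n = 3) beside 22.3 ± 8.20 CPM (SD, n = 3) in CD4cre and 22.1 ± 5.29 CPM (SD, n = 5) in CD4IKK1. None of the differences passed in edgeR's quasi-likelihood test, with −0.01 for CD4IKK1 against CD4cre (SE 0.32, FDR 0.994), 0.76 for CD4NIK against CD4cre (SE 0.34, FDR 0.149) and −0.78 for CD4IKK1 against CD4NIK (SE 0.30, FDR 0.0524). The last had an adjusted p of 0.0213 in DESeq2 and an FDR of 0.0489 without CD4IKK1 replicate 1, within a range of 0.0213 to 0.795 over 18 alternatives. The log2 ratio of *Gclm* to *Gclc*, the subunits of 1 enzyme, ran from −1.51 to −0.36 over all libraries. Its differences between groups were −0.06, 0.21 and −0.27, with adjusted p between 0.381 and 0.857 (two-sided exact permutation tests).

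*Slc7a11* (chr3:49846975-50398070, minus strand, GRCm39), the cystine carrier of system xc-, had 219, 208 and 260 counts in CD4cre, 192, 245, 204, 177 and 225 in CD4IKK1 and 162, 123 and 80 in CD4NIK. Its levels of 10.5 ± 2.32 CPM (SD, n = 3), 11.1 ± 1.66 CPM (SD, n = 5) and 6.91 ± 1.86 CPM (SD, n = 3) overlapped between all groups, and no difference passed. Its partner *Slc3a2*, the heavy chain that brings several amino acid carriers to the cell surface, had 224.6 ± 45.4 CPM (SD, n = 3), 123.9 ± 24.4 CPM (SD, n = 5) and 417 ± 81.2 CPM (SD, n = 3). *Slc3a2* rose in CD4NIK against CD4cre (log2 fold change 0.87, SE 0.22, FDR 0.0299 in edgeR's quasi-likelihood test) and was lower in CD4IKK1 than in CD4NIK (−1.75, SE 0.19, FDR 7.95e-05).

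Against CD4cre it gave −0.86 in CD4IKK1 (FDR 0.0878 in edgeR's quasi-likelihood test, adjusted p 0.00103 in DESeq2), and the libraries of these groups did not overlap. The log2 ratio of *Slc7a11* to *Slc3a2* was −4.95, −4.56 and −3.74 in CD4cre, −3.01, −3.07, −3.76, −4.01 and −3.48 in CD4IKK1 and −5.16, −6.25 and −6.36 in CD4NIK. CD4IKK1 lay above CD4NIK in all libraries, by 2.46 (p = 0.0179, adjusted p 0.0714, two-sided exact permutation test). CD4NIK lay below CD4cre in all libraries, by 1.51 on the log2 scale, with p = 0.100, the smallest that 3 against 3 libraries allow in this exact test.

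**Figure D4:**
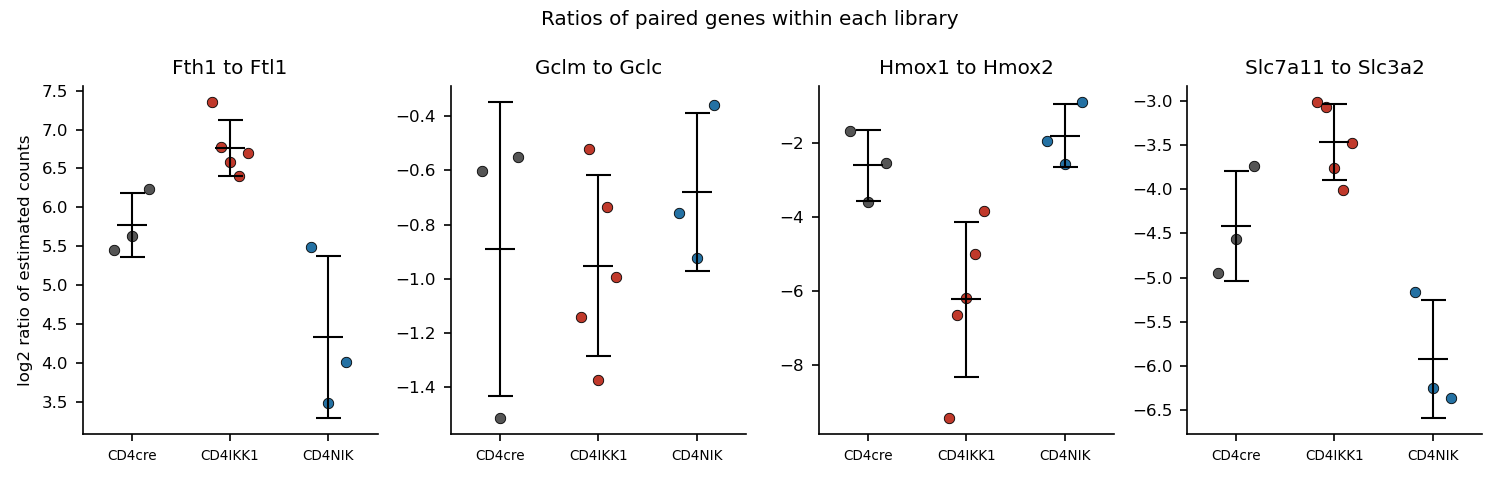
Log2 ratio of estimated counts of paired genes within each library (0.5 added to each count), by group. Points are libraries and bars the mean ± SD. The CD4IKK1 libraries lie above all others for *Fth1* to *Ftl1* and below all others for *Hmox1* to *Hmox2*, and no order of groups is seen for *Gclm* to *Gclc*.

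Of the thioredoxin genes, *Prdx1* passed against both other groups in CD4NIK and *Txnrd1* only against CD4IKK1. *Prdx1* (chr4:116532123-116558398, plus strand, GRCm39), an abundant cytosolic peroxidase recycled by thioredoxin, had 9298, 7286 and 5441 counts in CD4cre, 5419, 6501, 5605, 5934 and 7056 in CD4IKK1 and 10386, 12319 and 9583 in CD4NIK. The levels were 328 ± 48.3 CPM (SD, n = 3), 323 ± 20.9 CPM (SD, n = 5) and 620 ± 49.7 CPM (SD, n = 3), and the 3 CD4NIK libraries lay above all others. It rose 1.87-fold in CD4NIK against CD4cre (log2 fold change 0.90, SE 0.18, FDR 0.0168 in edgeR's quasi-likelihood test).

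The difference had an FDR of 0.0536 without CD4cre replicate 2, 0.0661 without CD4cre replicate 3 and 0.0534 without CD4NIK replicate 3, within a range of 0.000327 to 0.978 over 15 alternatives. *Prdx1* was lower in CD4IKK1 than in CD4NIK (log2 fold change −0.93, SE 0.12, FDR 0.000156 in edgeR's quasi-likelihood test) and did not separate CD4IKK1 from CD4cre (−0.02, SE 0.11, FDR 0.964).

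*Txnrd1* (chr10:82669785-82733546, plus strand, GRCm39), the reductase that keeps cytosolic thioredoxin active, had 820, 1093 and 866 counts in CD4cre, 548, 891, 945, 745 and 1264 in CD4IKK1 and 1666, 1345 and 984 in CD4NIK. CD4NIK, at 76.1 ± 14.7 CPM (SD, n = 3), did not overlap with CD4cre at 42.7 ± 10.8 CPM (SD, n = 3) or CD4IKK1 at 45.8 ± 9.70 CPM (SD, n = 5). It was lower in CD4IKK1 than in CD4NIK by 0.72 on the log2 scale (SE 0.22, FDR 0.0195 in edgeR's quasi-likelihood test). Without CD4NIK replicate 1 this difference had an FDR of 0.0875, and without CD4IKK1 replicates 1 and 2 together 0.0835. Its range was 0.00493 to 0.599 over 18 alternatives. CD4NIK against CD4cre gave 0.82 (SE 0.27, FDR 0.0593 in edgeR's quasi-likelihood test, adjusted p 0.0228 in DESeq2).

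With *Prdx1* and *Txnrd1* moved the T cell markers, of which 14 of 15 were called higher in CD4NIK than in CD4cre, beside 1 of 12 macrophage and monocyte markers and 12.1% of all genes. With the T cell marker level as a covariate, *Prdx1* in CD4NIK against CD4cre gave 0.26 (FDR 0.978 in edgeR's quasi-likelihood test), and 0 of the 15209 genes were called in that fit. *Txnrd1* in CD4NIK against CD4cre ran from 0.64 to 2.33 over all 15 alternatives and from 0.64 to 1.03 without 1 library. In CD4IKK1 against CD4NIK *Prdx1* gave −1.05 with this covariate (FDR 0.0342, with 4.59% of all genes called) and −1.16 with the macrophage and monocyte level (FDR 0.0519, with 0.0907% of all genes called). T cell marker levels did not overlap between the groups, so that a fit with them cannot separate them from the genotype. The part of these cell types in the differences was not tested.

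*Nqo1* (chr8:108113835-108129934, minus strand, GRCm39), a quinone reductase and a classical NRF2 target, had few counts, which differed widely between libraries of 1 group. It had 0, 74 and 36 counts in CD4cre, 63, 143, 5, 0 and 149 in CD4IKK1 and 113, 15 and 38 in CD4NIK. A library of each of the first 2 groups was at 0, which at these depths allows up to 0.115 and 0.149 CPM. All groups overlapped. The log2 fold changes were 1.04 (SE 1.65, FDR 0.836) for CD4IKK1 against CD4cre, 0.83 (SE 1.37, FDR 0.692) for CD4NIK against CD4cre and 0.21 (SE 1.51, FDR 0.928) for CD4IKK1 against CD4NIK, in edgeR's quasi-likelihood test.

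Beyond the 10 genes, 96 other genes of the same systems were examined. In CD4IKK1 against CD4cre 0 of 86 tested were called by edgeR (17, or 19.8%, at an unadjusted p under 0.05, beside 16.6% of all genes, and 6 called by DESeq2, which called 8.75% of all genes). In CD4NIK against CD4cre 12 of 85 were called, 6 higher and 6 lower, which is 14.1% beside the 21.1% of all genes. In CD4IKK1 against CD4NIK 43 of 87 were called, 21 higher and 22 lower, or 49.4% beside 42.2%. The medians of these lists were 0.11, 0.02 and −0.12 on the log2 scale.

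**Figure D5:**
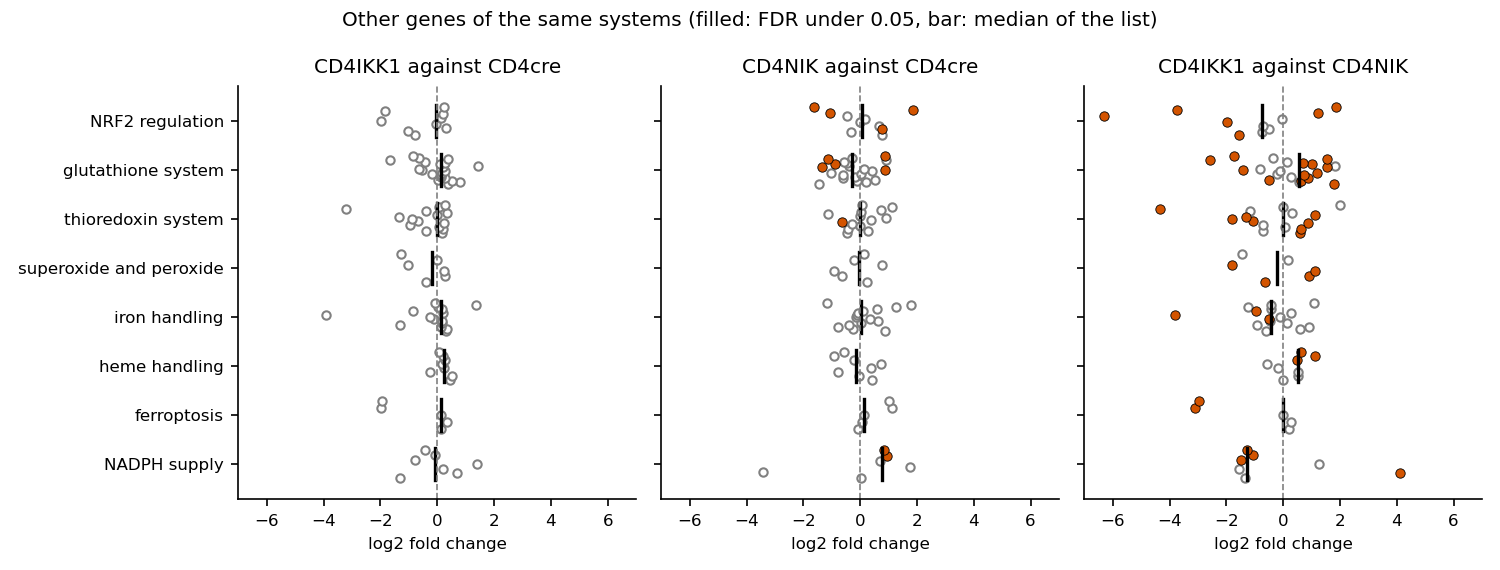
Log2 fold change of the other genes of the same systems in the 3 comparisons, with 1 point for each gene tested, grouped by list. Filled points reached the FDR threshold of 0.05 (0, 12 and 43 genes from left to right), and bars are the median of each list.

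*Nfe2l2*, which encodes NRF2 itself, had 1497, 535 and 214 counts in CD4cre, 87, 126, 151, 207 and 281 in CD4IKK1 and 2169, 1791 and 1966 in CD4NIK. The 3 CD4NIK libraries lay above all others, at 115.9 ± 25.7 CPM (SD, n = 3), and CD4IKK1 at 8.73 ± 2.84 CPM (SD, n = 5) overlapped with CD4cre at 31.4 ± 23.9 CPM (SD, n = 3). *Nfe2l2* rose in CD4NIK against CD4cre (log2 fold change 1.87, SE 0.52, FDR 0.0390 in edgeR's quasi-likelihood test) and was 13.2-fold lower in CD4IKK1 than in CD4NIK (−3.72, SE 0.44, FDR 0.000115). In CD4IKK1 against CD4cre the value was −1.85 (SE 0.47, FDR 0.113 in edgeR's quasi-likelihood test, adjusted p 0.00599 in DESeq2).

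*Keap1*, the adaptor that marks NRF2 for degradation, passed in none of the comparisons, with −0.03, 0.68 and −0.72. *Bach1*, a heme-sensing repressor of *Hmox1*, gave −0.79 and 0.77 against CD4cre and was lower in CD4IKK1 than in CD4NIK (−1.56, SE 0.49, FDR 0.0214 in edgeR's quasi-likelihood test). *Mafk*, a small MAF partner of these factors, was at 0 in all 5 CD4IKK1 libraries and had 2, 14 and 10 counts in CD4NIK and between 0 and 40 in CD4cre. The CD4NIK mean of 0.501 CPM was 3.12-fold above the mean CD4IKK1 floor of 3 counts per library. CD4NIK replicate 1 was itself below 3 counts, so that this is not a lower bound.

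*Sqstm1*, which encodes the autophagy receptor p62, a binding partner of KEAP1, fell in CD4NIK against CD4cre (−1.64, SE 0.33, FDR 0.0161 in edgeR's quasi-likelihood test) and was 3.65-fold higher in CD4IKK1 than in CD4NIK. *Nfe2l1*, a relative of NRF2, fell in CD4NIK against CD4cre (−1.05, SE 0.23, FDR 0.0215 in edgeR's quasi-likelihood test).

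In the glutathione list, 2 genes were higher and 3 lower in CD4NIK against CD4cre among 21 tested (12.1% and 8.97% of all genes). *Gsr*, glutathione reductase, rose (0.86, SE 0.20, FDR 0.0230 in edgeR's quasi-likelihood test), as did *Slc3a2*. Of the 7 glutathione transferases tested, 3 fell, namely *Gsta4* at −1.35 (SE 0.23, FDR 0.0103), *Mgst3* at −1.15 (SE 0.26, FDR 0.0227) and *Gsto1* at −0.90 (SE 0.22, FDR 0.0276) in the same test. Between CD4IKK1 and CD4NIK 13 of 21 were called (42.2% of all genes), 9 higher in CD4IKK1, among them *Chac1*, which degrades glutathione (1.80), *Gsta4* (1.53) and *Mgst3* (1.53), and 4 lower. *Gpx1*, the cytosolic glutathione peroxidase, passed in none of the comparisons, with −0.17, 0.02 and −0.21.

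In the thioredoxin list, 1 of 14 was called by edgeR and 3 by DESeq2 in CD4NIK against CD4cre (21.1% and 30.4% of all genes), and 8 of 15 by edgeR between CD4IKK1 and CD4NIK (42.2% of all genes), 4 in each direction. *Txnip*, the inhibitor of thioredoxin, had 5393, 1974 and 1450 counts in CD4cre, 11, 40, 98, 316 and 967 in CD4IKK1 and 7949, 3401 and 3093 in CD4NIK. It was 20.2-fold lower in CD4IKK1 than in CD4NIK (log2 fold change −4.34, SE 1.08, FDR 0.00984 in edgeR's quasi-likelihood test). Against CD4cre CD4IKK1 gave −3.21 (SE 1.20, FDR 0.261) with no overlap. *Srxn1*, which restores overoxidized peroxiredoxins, was higher in CD4IKK1 than in CD4NIK (1.13, SE 0.28, FDR 0.00682 in edgeR's quasi-likelihood test).

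In the NADPH list, which holds the enzymes that feed both reductases, *Taldo1* and *Tkt* of the pentose phosphate pathway rose in CD4NIK against CD4cre (0.96, FDR 0.0118, and 0.83, FDR 0.0283, in edgeR's quasi-likelihood test), 2 of 6 tested beside 12.1% of all genes called higher. *Idh1*, cytosolic isocitrate dehydrogenase, was higher in CD4IKK1 than in CD4NIK (4.11, SE 1.04, FDR 0.00809 in edgeR's quasi-likelihood test), with CD4cre libraries at 494, 621 and 8 counts.

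In the iron list, 0 of 15 were called by edgeR in each comparison with CD4cre (DESeq2 called 1 in each) and 3 of 15 between CD4IKK1 and CD4NIK, all lower in CD4IKK1. For this list and the following ones, 42.2% of all genes were called in the latter comparison. *Slc11a1*, an iron and manganese exporter of phagosomes, was among them (−3.80, SE 1.01, FDR 0.00972 in edgeR's quasi-likelihood test), and against CD4cre it gave −3.91 in CD4IKK1 (FDR 0.132 in edgeR, adjusted p 0.00366 in DESeq2). *Tfrc*, the transferrin receptor, gave −0.09, −1.18 and 1.10, and *Ireb2*, an iron regulatory protein, gave 0.17, 0.04 and 0.12, and neither passed in edgeR. For *Tfrc* in CD4NIK against CD4cre the adjusted p was 0.0404 in DESeq2. The iron exporter *Slc40a1* had at most 26 counts in a library and was not tested. Of the heme list, 3 of 8 were higher in CD4IKK1 than in CD4NIK, *Hmox2* among them (0.49, SE 0.15, FDR 0.0187 in edgeR's quasi-likelihood test). Of the ferroptosis list, 2 of 5 were lower, among them *Gch1*, which makes the antioxidant tetrahydrobiopterin (−3.11, SE 1.07, FDR 0.0407). Of the superoxide and peroxide list, 4 of 6 were called there, 2 in each direction. Against CD4cre edgeR called 0 of them in either comparison, while DESeq2 called 2 in CD4NIK, the metallothioneins *Mt1* (adjusted p 0.0188) and *Mt2* (adjusted p 0.0356).

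The genes most like a member were found by the root mean square distance of centred log2 CPM over the 11 libraries among 16546 genes, where the genes share the same libraries and their depths. For *Fth1* they were *Dpy30* (0.0877), *Rabac1* (0.0907) and *Bola3* (0.0915), beside an SD of 0.213 of *Fth1* itself. For *Hmox1* they were *Arid5a* (0.541), *Socs3* (0.560) and *Acvrl1* (0.577), beside an SD of 2.30. For *Slc7a11* they were *Lysmd2* (0.124), *Kctd3* (0.129) and *Ankra2* (0.132), beside an SD of 0.404.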

How the data were processed

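Bulk RNA libraries of sorted CD4+ cells of the kidney came from 3 CD4cre, 5 CD4IKK1 and 3 CD4NIK mice, grouped by the sample titles. The authors enriched the cells with beads, sorted them, amplified the RNA with a SMARTer kit, trimmed the reads with Trimmomatic, assigned them with kallisto and deposited, for every symbol in every library, an estimated count that is not normalized. Their submission notes name mm10 and their methods GRCm39, and the kallisto version is not given in the sources used here. Gene positions are given on GRCm39 (GENCODE release M39) and promoter windows on GRCm38.p6 (RefSeq), each named where printed. Since kallisto divides reads that fit several transcripts, between 35.1% and 41.7% of a library's values carried a fraction, and all were rounded. None of the 55 pairs of libraries held identical values.

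Each comparison with CD4cre was fitted on its own groups and that of CD4IKK1 with CD4NIK on all 11 libraries, with edgeR 4.0.16 (R 4.3.3): expression filter, TMM, robust quasi-likelihood F test and Benjamini-Hochberg adjustment over all genes tested (FDR), with a threshold of 0.05. Standard errors were taken from the F statistic. CPM use TMM factors of all libraries, and log2 CPM a prior count of 2. Ratios within a library were compared by two-sided exact permutation of libraries. The titles call the replicates biological. DESeq2 1.42.0, other normalizations and filters, other samples in the fit, marker levels as covariates, the 2-fold threshold of the study, added copies and leaving out libraries were the alternatives. The replicate numbers shared by the groups were not taken as pairs, and deviations of same-numbered libraries correlated between −0.09 and 0.08. Whether same-numbered libraries were prepared together was not tested. Motifs were searched with Python scripts.

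The genes named are the 10 members, the targeted genes, 11 regulators and partners fixed by name, and per comparison the 5 called genes of the same systems with the largest rise and the 5 with the largest fall, with copies and the 3 nearest genes of 3 members. *Mt1* and *Mt2*, called by DESeq2 only, and some cell type markers are named in addition. The members and the lists of pathway and marker genes were chosen with earlier results of these data known.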

Additional observations from a re-analysis of the deposited data

Results flagged for a closer look

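Within the 5 CD4IKK1 libraries, 2 of the 10 genes had a library far from the others on the log2 CPM scale, by Dixon's ratio of the gap to the nearest library over the range of the group. *Gclm* in replicate 3 was low, with a ratio of 0.746, and *Gpx4* in replicate 1 was high, with a ratio of 0.762, each above the critical value of 0.710. Chance gives such a value in about 5% of groups. CD4IKK1 replicate 1 is also the library with 193 counts over all T cell markers. The groups with 3 libraries were not examined in this way.

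The effects of CD4IKK1 and CD4NIK against CD4cre differed for 6 of the 10 genes, by the direct contrast of these groups in edgeR's quasi-likelihood test (FDR under 0.05), which called 42.2% of all genes. On the log2 scale the difference was 0.40 for *Fth1*, −2.25 for *Ftl1*, −3.17 for *Hmox1*, −0.72 for *Txnrd1*, 1.10 for *Gpx4* and −0.93 for *Prdx1*. The summed levels of T cell, macrophage and neuron and glia markers differed between the same libraries, and their part in these differences cannot be told apart from the genotype.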

How the results depend on the processing

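The number of members called in CD4IKK1 against CD4cre was 0, and it was 2 with DESeq2 and 1 without the filter on low counts (pathway genes 0, 6 and 1, and 0%, 8.75% and 0.253% of all genes). In CD4NIK against CD4cre it was 2, and it became 5 with DESeq2, 4 with all 11 libraries in the fit, 1 with the macrophage and monocyte level as a covariate and 0 with the T cell level or above 2-fold, while pathway genes went from 12 to 22 with DESeq2, 0 with the T cell level and 5 above 2-fold. Of all genes 21.1% were called in the main comparison, 30.4% with DESeq2, 18.6% with all libraries, 17.1% with the macrophage and monocyte level, 0% with the T cell level and 17.4% above 2-fold. In CD4IKK1 against CD4NIK it was 6, and it became 1 with the T cell level, 0 with the macrophage and monocyte level and 3 above 2-fold, while pathway genes went from 43 to 4, 0 and 28 and the share of all genes called from 42.2% to 4.59%, 0.0907% and 33.3%. With the replicate block, 0 members, 3 pathway genes and 7.80% of all genes were called in CD4NIK against CD4cre, and *Prdx1* gave 0.0412 in CD4IKK1 against CD4cre and *Nqo1* −0.22 in CD4IKK1 against CD4NIK, each with a changed sign. The numbers were not taken as pairs, and the block changed no other count of members or pathway genes by over 1.5 times. Of all genes it called 3 in CD4IKK1 against CD4cre, where 0 were called without it. Why the calls differ between these fits was not tested.

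Leaving out 1 library at a time gave 0 to 3 members and 1 to 21 pathway genes in CD4NIK against CD4cre, and 5 to 8 and 27 to 43 in CD4IKK1 against CD4NIK, while the share of all genes called ran from 4.28% to 26.4% and from 29.96% to 41.5%. Without CD4cre replicate 2 or 3 or CD4NIK replicate 3, 0 members were called in CD4NIK against CD4cre, and without CD4NIK replicate 2 there was 1. Pathway genes numbered 1 and 3 without CD4cre replicate 2 and 3, and 21, 4 and 3 without CD4NIK replicate 1, 2 and 3, and in CD4IKK1 against CD4NIK 27 without CD4NIK replicate 3.

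Signs turned for uncalled members, as follows. With the T cell level, CD4IKK1 against CD4cre gave −0.12 for *Fth1*, −0.21 for *Gclc* and −0.10 for *Slc7a11*, and CD4NIK against CD4cre gave −2.66 for *Ftl1*, −0.36 for *Hmox1* and 1.27 for *Slc7a11*. With the macrophage and monocyte level, CD4IKK1 against CD4cre gave −0.14 for *Fth1*, 1.09 for *Hmox1*, −1.75 for *Nqo1*, −0.21 for *Gclc*, 0.35 for *Gclm*, −0.14 for *Txnrd1*, −0.0290 for *Gpx4* and −0.39 for *Slc7a11*. Without CD4IKK1 replicates 1 and 2 together it gave −0.0373 for *Fth1*, −0.0092 for *Gclc* and −0.0528 for *Slc7a11*. Signs of called members turned for *Gpx4* in CD4NIK against CD4cre (0.15 with the T cell level) and for *Hmox1* in CD4IKK1 against CD4NIK (0.25 and 0.36 with the T cell and the macrophage level). *Nqo1* in the latter comparison gave −1.73, −2.29 and, without replicates 1 and 2 together, −0.47.

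Without 1 library, CD4IKK1 against CD4cre ran from −0.0201 to 0.0956 for *Fth1*, −0.0400 to 0.19 for *Gclc*, −0.28 to 0.21 for *Gclm*, −0.0695 to 0.30 for *Txnrd1*, −0.14 to 0.0504 for *Prdx1*, −0.0508 to 0.26 for *Slc7a11* and −0.38 to 0.11 for the *Gclm* to *Gclc* ratio. In CD4NIK against CD4cre *Nqo1* ran from −0.0756 to 1.84 and this ratio from −0.10 to 0.38, and *Nqo1* ran from −0.27 to 1.11 in CD4IKK1 against CD4NIK.

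Library size alone moved the median of all genes to −0.15 in CD4NIK against CD4cre and 0.16 in CD4IKK1 against CD4NIK, and no member changed its direction with it or with RLE factors. *Txnrd1* in CD4IKK1 against CD4NIK then had an FDR of 0.0550 in edgeR. Copies changed no count of calls.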
